A study of Homo sapiens with 12 samples.

Results

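SK-N-DZ neuroblastoma cells that received both doxycycline and interferon gamma (IFNγ) were compared with untreated cells of the same line. The 3 libraries with both treatments (DI) and the 3 untreated control libraries (C) were taken by their column names in the deposited table of raw counts, which makes 6 of the 12 libraries of the series. SK-N-DZ is a MYCN-amplified neuroblastoma line, and the study used it to ask how loss of ARID1A, a subunit of the SWI/SNF chromatin remodelling complex, bears on the response to IFNγ. The labels give C the genotype WT with no treatment, and DI the genotype shARID1A with doxycycline for 4 days in total and IFNγ for 24 hours. The other groups received doxycycline alone (D, shARID1A) or IFNγ alone (I, WT), each with 3 libraries. The study's methods describe a clonal line selected with puromycin, so 1 clone stands for the genotype, and in it doxycycline switches on a short hairpin RNA against ARID1A. Whether the libraries with the genotype WT came from the same clone without doxycycline is not given in the sources used here. No group received doxycycline without the hairpin, so the drug and the hairpin cannot be told apart in what follows. Markers of neuroblastoma were looked up, and 18 of 18 adrenergic neuroblastoma factors passed the filter on low counts. GATA3, a sympathoadrenal transcription factor, stood at 544, 609 and 613 CPM in C and 634, 596 and 804 CPM in DI. TH, also looked up as such a marker, was low in DI and varied widely within C, with values given further on. Of 14 leukocyte markers only CD14 passed the filter, at 0.307, 0.497 and 1.06 CPM in C and 0.308, 0.359 and 0.27 CPM in DI, and CD3D, CD3E and MS4A1 had no count in these 6 libraries.

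IFNγ binds a receptor that activates the kinases JAK1 and JAK2, and the signal reaches the nucleus at gamma-activated sites (GAS) in DNA. Among the first genes switched on is that of the transcription factor IRF1, which binds interferon-stimulated response elements (ISRE) in front of genes for antigen presentation, antiviral defence and cytokines. Doxycycline is a tetracycline, a class of antibiotics that also bind the ribosomes of mitochondria, and cells with disturbed mitochondrial translation are known to switch on the transcription factor ATF4, which binds C/EBP-ATF response elements (CARE) of amino acid and stress genes.

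The letters that these factors read were searched for in RefSeq promoter windows (GRCh38.p14, 250 bases before to 50 after each gene's start), on both strands. GAS was searched as TTCNNNGAA, ISRE as TTTC-NN-TTTC and CARE as TGATGNAA. Of 27305 promoters, 7.88% held the GAS letters, 3.65% the ISRE letters and 3.67% the CARE letters. The windows of 30 bases below are from genes whose counts are given further on, a signalling gene (IRF1), a surface ligand (ICAM1), a GTPase (GBP1), a peptide transporter (TAP1), its chaperone (TAPBP), antiviral genes (IFIT3, OAS3) and a stress gene (CHAC1), and capitals mark the matched letters.
IRF1 GAS (chr5:132490878-132490907, minus strand): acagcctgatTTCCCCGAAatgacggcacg
ICAM1 GAS (chr19:10271035-10271064, plus strand): ggcgcgaggtTTCCGGGAAagcagcaccgc
GBP1 ISRE (chr1:89065316-89065345, minus strand): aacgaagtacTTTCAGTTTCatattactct
TAP1 ISRE (chr6:32853813-32853842, minus strand): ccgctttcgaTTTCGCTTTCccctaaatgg
TAPBP ISRE (chr6:33314073-33314102, plus strand): ctcttcctccTTTCACTTTCactttcctcc
IFIT3 ISRE (chr10:89327831-89327860, plus strand): agccgttaggTTTCATTTTCctcctcccaa
OAS3 ISRE (chr12:112938321-112938350, minus strand): aattccctgcTTTCAGTTTCgtttctttct
CHAC1 CARE (chr15:40953251-40953280, minus strand): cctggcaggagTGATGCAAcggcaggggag
The windows of TAP1, TAPBP, IFIT3 and OAS3 hold 2 ISRE matches each, of which 1 is printed. A match is a description of the letters and no measure of binding.

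The libraries held between 16469832 and 21790869 counts, and 3 counts corresponded to 0.135 to 0.187 CPM, a count relative to the TMM-scaled library total. All levels below are in CPM, given for replicates 1, 2 and 3 of each group in that order, and libraries are named C1 to C3 and DI1 to DI3. Positions of genes are those of GENCODE 29 on GRCh38. Fold changes are edgeR quasi-likelihood estimates on the log2 scale with their standard error, for 3 against 3 libraries. The spread behind errors and p-values was estimated over all 12 libraries, those of D and I included. Adjusted p-values are Benjamini-Hochberg values over 15828 genes. Nothing in the labels says that replicates were separate cultures, so the p-values measure the spread between these libraries, which may be technical. Without molecular identifiers, floors and intervals cover counting error only. Libraries with the same replicate number deviated together from their group means (r = 0.32 to 0.63 between C and DI), so a fit with the number as a block is given where it changes a call.

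ARID1A (chr1:26693236-26782110), the target of the hairpin, was measured at 197, 186 and 165 CPM in C and 151, 133 and 148 CPM in DI. The groups did not overlap, which held for 10.3% of tested genes with DI below C and for 12% with DI above C, and the difference did not pass the test (log2 fold change -0.34 ± 0.11, adjusted p = 0.123). With the replicate block it passed (adjusted p = 0.0163), as it did with DESeq2 (adjusted p = 0.0348). The fold changes beside it were 0.10 for I against C and -0.09 for D against C.

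Between DI and C, 712 of 15828 genes were called at an adjusted p under 0.05, which is 4.5% of the genes tested. Of these, 463 were raised (2.93%) and 249 were lowered (1.57%). With the replicate block 3067 genes were called (19.4%), 1531 raised (9.67%) and 1536 lowered (9.7%), and 711 of the 712 genes were among them in the same direction. The count fell to 378 without C1, 462 without C2, 367 without C3, 456 without DI1, 543 without DI2 and 417 without DI3. Raised genes took 1.63%, 1.74% and 1.56% of all counts in C and 4.27%, 4.65% and 4.36% in DI. Lowered genes took 5.41%, 4.94% and 4.68% in C and 3.09%, 2.50% and 2.32% in DI. In bulk RNA, fewer cells that carry a transcript and less transcript per cell cannot be told apart.

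The raised and lowered sides are described here by size of change and by level in C. The median change of raised genes was 1.5 on the log2 scale (1.49 with genes that had no control count set at their lower bound), and 285 of 463 (61.6%) rose at least 2-fold. Lowered genes had a median of -0.70, and 54 of 249 (21.7%) fell by that much, against a median near 0 over all genes tested. Among raised genes 149 stood under 1 CPM in C and 34 had no count there, while no lowered gene stood under 1 CPM in C. Over all tested genes 2046 stood under 1 CPM in C, and 49 had no count there. The median control level was 11.2 CPM for raised genes, 64.8 CPM for lowered genes and 22 CPM for all genes. Of the called genes, 0 lowered and 164 raised ones had a fitted change of 8-fold or more. A gene with few counts in C has little room to fall, and one with none passes the low-count filter only through treated libraries. The counts by control level and of 8-fold changes therefore describe the genes and support no contrast between the sides.

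**Figure D1:**
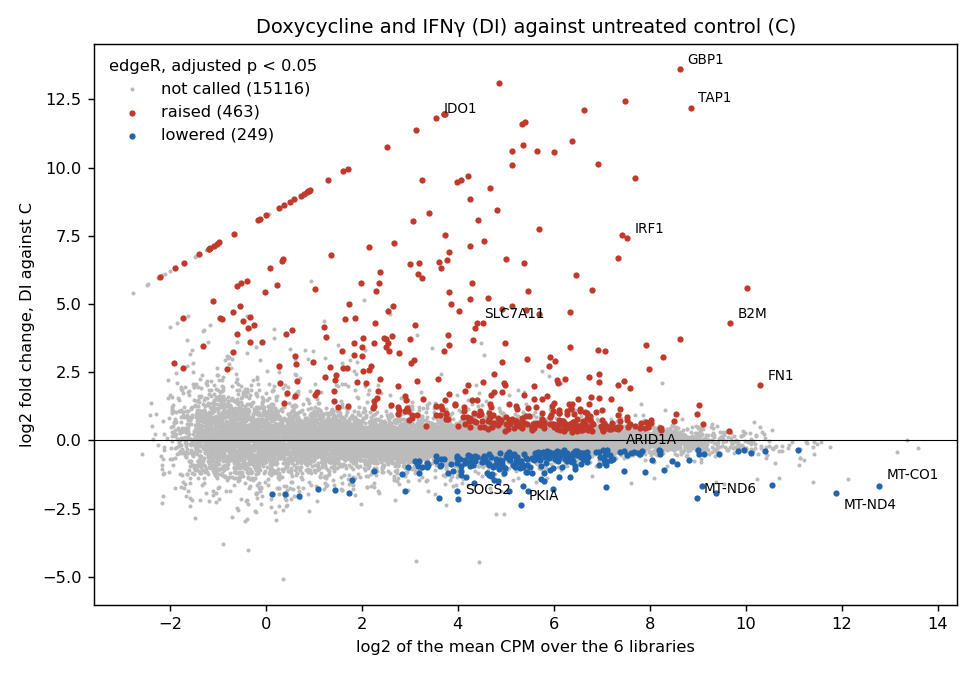
Each point is 1 of 15828 genes, with the log2 of its mean CPM over the 6 libraries on the x axis and the log2 fold change of DI against C on the y axis. The 463 raised genes (red) reach far higher than the 249 lowered genes (blue), and the straight edge of points at the upper left is formed by genes with few or no counts in C.

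The members below come from 37 gene lists made from general knowledge. A gene that passed the low-count filter only through its treated libraries had to be higher there, so counts and medians over such lists describe them and support nothing. Fitted fold changes of genes with no control count depend on the prior count, and for those a lower bound is given in place of a fold. It sets the mean of DI against a floor of 3 counts per library in C. Spread among the DI libraries is not allowed for, so a single DI library can lie below the bound.

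Of the 16 genes of IFNγ signalling and the IRF family, all were tested, and 13 were raised (median log2 2.13). IRF1 (chr5:132481609-132490798) rose from 2.27, 2.33 and 1.81 CPM to 376, 342 and 383 CPM (log2 fold change 7.41 ± 0.18, adjusted p = 3.22e-09), with little spread in either group. STAT2, a factor of type I interferon signalling, was measured at 26.9, 25.5 and 18.2 CPM in C and 117, 116 and 95.5 CPM in DI (log2 fold change 2.22 ± 0.21, adjusted p = 9.06e-05). NLRC5, the transactivator of MHC class I genes, had 3 counts in C and 367, 365 and 337 CPM in DI (ratio 6233, 95% Poisson interval 2133 to 30225, adjusted p = 6.05e-07). IRF8, a factor best known from myeloid cells, had no count in C and reached 21.6, 44.6 and 12 CPM (at least 150.3-fold higher, adjusted p = 0.00351).

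Inhibitors that limit the pathway moved both ways. Of 13 tested, 6 were raised and 1 was lowered, and the median was 0.39. SOCS1, which blocks JAK kinases, stood at 0.676, 0.348 and 1.62 CPM in C and 32, 23.9 and 28.2 CPM in DI (log2 fold change 5.01 ± 0.49, adjusted p = 1.47e-04). PARP14 was measured at 3.87, 3.72 and 1.62 CPM in C and 333, 291 and 332 CPM in DI (log2 fold change 6.68 ± 0.35, adjusted p = 1.08e-06). USP18, which removes ISG15 from proteins and dampens the type I receptor, stood at 0.307, 0.298 and 0 CPM in C and 10.2, 4.41 and 14.1 CPM in DI (log2 fold change 5.49 ± 0.80, adjusted p = 0.00249), and NMI, which binds STAT proteins, at 0, 0 and 0.436 CPM in C and 28.4, 21.8 and 28.5 CPM in DI (log2 fold change 7.53 ± 0.83, adjusted p = 3.31e-04). SOCS2 (chr12:93569814-93583487), a relative of SOCS1 that acts on growth hormone signalling, went the other way, with 24.7, 21.9 and 31.6 CPM in C and 4.82, 4.61 and 8.24 CPM in DI. Its groups were well apart (log2 fold change -2.14 ± 0.35, adjusted p = 0.00527), and the call held without any 1 of the 6 libraries.

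Guanylate-binding proteins are interferon-induced GTPases that attack intracellular pathogens. All 6 tested members of 7 were raised (median log2 9.11, or 7.19 with the 3 members without control counts at their bound). GBP1 (chr1:89052319-89065360) had 3 counts in C and 859, 685 and 825 CPM in DI (ratio 13800.1, 95% Poisson interval 4722 to 66918, adjusted p = 3.05e-08). GBP2 stood at 0.43, 0.646 and 0.312 CPM in C and 78.4, 172 and 56.5 CPM in DI (log2 fold change 7.73 ± 0.62, adjusted p = 2.80e-05), and DI2 held more than the other DI libraries. GBP4 was measured at 0.123, 0.447 and 0 CPM in C and 283, 231 and 207 CPM in DI (log2 fold change 10.13 ± 0.46, adjusted p = 3.99e-07). GBP3 had no count in C and 19.9, 23.3 and 8.83 CPM in DI (at least 99.9-fold higher, adjusted p = 4.34e-04). GBP6 did not pass the filter, with 10, 5 and 1 counts in DI and none in C.

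MHC class I displays peptides to T cells, and its chains other than B2M started from very low levels. All 6 tested chains of 7 were raised (median log2 8.03, or 5.92 with the member without control counts at its bound). B2M (chr15:44711487-44718877), the light chain shared by all class I molecules, was the chain with a clear control level, at 80.2, 85.5 and 71.7 CPM in C and 1423, 1539 and 1707 CPM in DI (log2 fold change 4.30 ± 0.17, adjusted p = 1.08e-07). HLA-B had 4 counts over the 3 control libraries and 93.9, 128 and 161 CPM in DI (log2 fold change 10.58 ± 0.79, adjusted p = 1.46e-05). HLA-C had 2 counts in C and 62.1, 60.9 and 85 CPM in DI (ratio 1819, 95% Poisson interval 503 to 15018, adjusted p = 7.76e-07), and HLA-E stood at 2.09, 2.93 and 0.312 CPM in C and 288, 439 and 293 CPM in DI (log2 fold change 7.54 ± 0.68, adjusted p = 6.60e-05). HLA genes are near copies of each other and the counting could split or drop reads among them, so their levels are uncertain. HLA-G had 2 counts in C1 and none in DI.

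Most genes that cut, carry and load peptides were raised as well, 11 of 14 tested (median log2 3.37). TAP1 (chr6:32845209-32853978), a chain of the peptide transporter, had counts in C1 alone among the controls and stood at 0.615, 0 and 0 CPM in C and 895, 939 and 956 CPM in DI (log2 fold change 12.19 ± 0.62, adjusted p = 6.14e-06). TAP2, its partner, had 1 count in C and 77.7, 78.9 and 84.4 CPM in DI (ratio 4213, 95% Poisson interval 756 to 166411, adjusted p = 3.83e-07). PSMB9, a subunit of the immunoproteasome, had 2 counts in C and 176, 178 and 236 CPM in DI (ratio 5149.8, 95% Poisson interval 1426 to 42523, adjusted p = 2.24e-06). TAPBP, which bridges class I to the transporter, and PSME2, a proteasome activator, were well expressed in C. TAPBP rose from 21.6, 18.6 and 25.9 to 221, 192 and 248 CPM (log2 fold change 3.32 ± 0.19, adjusted p = 2.27e-06) and PSME2 from 35, 38.9 and 32 to 190.1, 163 and 183 CPM (log2 fold change 2.34 ± 0.13, adjusted p = 2.01e-06). On chromosome 6, which carries the MHC, 39 of 776 tested genes were raised (5.03%) and 5 lowered (0.64%). Over all tested genes the shares were 2.93% raised and 1.57% lowered. Chromosomes 21, 15 and 12 came close to chromosome 6, with 4.88%, 4.35% and 4.08% raised.

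Most MHC class II genes had few counts. Of 15 genes 6 passed the filter and 2, CD74 and HLA-DOB, were raised. CIITA, the transactivator of class II, counted with the IRF factors above, stood at 0.799, 1.19 and 0.81 CPM in C and 3.7, 3.64 and 2.34 CPM in DI (log2 fold change 1.78 ± 0.39, adjusted p = 0.0262). CD74, the invariant chain, was measured at 9.59, 11.5 and 12.3 CPM in C and 35, 42.3 and 16.5 CPM in DI (log2 fold change 1.49 ± 0.34, adjusted p = 0.0334), and its call was lost without C1, C2, C3, DI1 or DI2 (adjusted p = 0.141, 0.0985, 0.0935, 0.099 and 0.0969). HLA-DOB had no count in C and 0.616, 0.615 and 0.991 CPM in DI (at least 4.27-fold higher, adjusted p = 0.00579). HLA-DRA had 0, 3 and 4 counts in C and 8, 5 and 6 counts in DI, and was not tested.

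Interferon chemokines and cytokines were mostly near the floor, with 4 of 12 tested and 3 raised. CXCL10, a T cell attractant, had no count in C and 1, 0 and 2 counts in DI, so a difference was not detectable at this depth. CXCL9, of the same family, had no count in C and 0.719, 0.154 and 0.901 CPM in DI (at least 3.41-fold higher, adjusted p = 0.037), and its call was lost without C1, C2, C3, DI1 or DI3 (adjusted p = 0.0942, 0.0917, 0.0948, 0.0982 and 0.101). IL15, a growth factor of NK and T cells, stood at 0.307, 0.546 and 0.312 CPM in C and 14.1, 13.7 and 8.42 CPM in DI (log2 fold change 4.91 ± 0.59, adjusted p = 6.49e-04). IL18BP, a secreted trap of IL18, rose from 7.13, 7.25 and 6.98 to 61.2, 39 and 58.6 CPM (log2 fold change 2.89 ± 0.17, adjusted p = 2.34e-06).

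Antiviral effectors formed the longest raised list. Of 36 genes 32 were tested, 27 were raised (32 with the block), and all 32 had a fold change above 0 (median log2 4.97, or 3.95 with the 5 members without control counts at their bound). IFIT2, which binds viral RNA, stood at 0.307, 0.348 and 0.249 CPM in C and 27.2, 26.4 and 20.5 CPM in DI (log2 fold change 6.31 ± 0.29, adjusted p = 3.86e-07), and IFIT3 had 3 counts in C and 117, 106 and 78.3 CPM in DI (ratio 1756, 95% Poisson interval 601 to 8517, adjusted p = 3.20e-07). IFI35 was measured at 0, 0.0993 and 0.125 CPM in C and 51.6, 43.8 and 57.2 CPM in DI (log2 fold change 9.27 ± 0.36, adjusted p = 1.08e-07). UBA7, the enzyme that activates ISG15, had 2 counts in C and 35, 32.6 and 32.7 CPM in DI (ratio 876, 95% Poisson interval 243 to 7237, adjusted p = 3.05e-08). OAS3, a sensor of double-stranded RNA, and DDX60, a helicase, had no count in C. OAS3 reached 28.8, 28.4 and 22 CPM (at least 152-fold higher, adjusted p = 8.38e-06) and DDX60 24.1, 23.5 and 31 CPM (at least 151-fold higher, adjusted p = 4.43e-06). MX1, MX2, OAS2 and OASL did not pass the filter, and MX1 had 8, 8 and 5 counts in DI against none in C.

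A list of tryptophan and nutrient restriction enzymes, which also held apolipoproteins L, included some of the largest increases. Of its 7 tested members 6 were raised (median log2 9.61, or 7.07 with the 3 members without control counts at their bound). IDO1, which breaks down tryptophan, had no count in C and 35.1, 27.1 and 7.88 CPM in DI (at least 135-fold higher, adjusted p = 0.00357), and DI3 was the lowest. WARS1, the tryptophanyl-tRNA synthetase, rose from 50.9, 52.8 and 63 to 793, 799 and 613 CPM (log2 fold change 3.73 ± 0.32, adjusted p = 4.93e-05). Apolipoproteins L, which permeabilise membranes of pathogens, were among the raised members. APOL3 had no count in C and 72.7, 76.8 and 24.5 CPM in DI (at least 334-fold higher, adjusted p = 1.57e-04), APOL6 stood at 0.246, 1.19 and 0 CPM in C and 434, 481 and 324 CPM in DI (log2 fold change 9.61 ± 0.67, adjusted p = 9.85e-06), and APOL2 at 2.58, 1.89 and 3.3 CPM in C and 185, 210.4 and 122 CPM in DI (log2 fold change 6.07 ± 0.47, adjusted p = 1.93e-05). APOL1 had 4 counts in C and 172, 249 and 76.9 CPM in DI (log2 fold change 10.97 ± 0.76, adjusted p = 4.93e-05). PLAAT4, a phospholipase outside the lists, was among the 12 largest increases, with 1 count in C and 92.8, 109 and 52 CPM in DI (ratio 4433, 95% Poisson interval 796 to 175077, adjusted p = 2.09e-05).

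Surface ligands for T and NK cells were raised in part, with 6 of 12 tested members called and 9 with the replicate block. The number was 3 without C1 or with only the 6 libraries in the model, and 4 without C2, C3, DI1 or DI3. CD274, which encodes the checkpoint ligand PD-L1, had 2 counts in C and 4.72, 3.18 and 7.21 CPM in DI (ratio 132, 95% Poisson interval 36.6 to 1091, adjusted p = 0.00114). ICAM1, an adhesion molecule of the immune synapse, had 3 counts in C and 9.6, 29.6 and 10.8 CPM in DI (ratio 291, 95% Poisson interval 99.7 to 1413, adjusted p = 7.22e-04), and DI2 held the most. TNFRSF14, a ligand of the checkpoint receptor BTLA, stood at 0.615, 0 and 0.312 CPM in C and 21.7, 19.8 and 14.8 CPM in DI (log2 fold change 5.96 ± 0.68, adjusted p = 4.38e-04). CD47, the signal against phagocytosis, was well expressed in C and rose from 69.4, 108 and 68.4 to 169, 205 and 153 CPM (log2 fold change 1.10 ± 0.21, adjusted p = 0.0133), a call lost without C1 or C3 (adjusted p = 0.0714 and 0.0672).

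Death receptors and caspases moved in both directions, with 7 raised and 1 lowered of 14 tested (median log2 1.22, or 1.02 with the 2 members without control counts at their bound). The number raised was 3 without C1, C2, C3 or DI1, and 4 without DI3 or with only the 6 libraries. CASP8, the initiator caspase that is silenced in many neuroblastomas, stood at 0.307, 0.497 and 0.125 CPM in C and 2.31, 1.95 and 3.92 CPM in DI (log2 fold change 3.09 ± 0.52, adjusted p = 0.00589). The TNF receptor TNFRSF1A rose from 30.6, 30.4 and 22.8 to 102, 101 and 59.9 CPM (log2 fold change 1.65 ± 0.25, adjusted p = 0.00351). TNFRSF10D, a decoy receptor that binds the death ligand TRAIL without passing on its signal, was the lowered member, with 22.2, 12.2 and 25.1 CPM in C and 4.47, 6.05 and 3.29 CPM in DI. No DI library reached the lowest control (log2 fold change -2.11 ± 0.32, adjusted p = 0.00351).

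Complement components and regulators had 7 raised genes of 10 tested (median log2 3.71). SERPING1, the inhibitor of the first component, had the most reads of the 4 genes named here, at 66.4, 86.4 and 58.5 CPM in C and 437, 527 and 332 CPM in DI (log2 fold change 2.62 ± 0.35, adjusted p = 0.00152). C1S, a protease of that component, stood at 2.34, 2.53 and 0.81 CPM in C and 98.7, 106 and 54.1 CPM in DI (log2 fold change 5.49 ± 0.47, adjusted p = 4.93e-05), and the complement gene C2 at 0.0615, 0.199 and 0.249 CPM in C and 15, 18.4 and 14.1 CPM in DI (log2 fold change 6.48 ± 0.42, adjusted p = 4.83e-06). C4B was measured at 0.184, 0.199 and 0.374 CPM in C and 5.8, 29.9 and 17.4 CPM in DI (log2 fold change 6.11 ± 0.84, adjusted p = 0.00175), and it shares nearly all of its sequence with C4A, so the split between the 2 genes is uncertain.

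FN1 (chr2:215360440-215436172), which encodes fibronectin, was among the called genes that gained the most CPM, as were B2M, TAP1, GBP1 and WARS1. It stood at 379, 621 and 487 CPM in C and 1239.9, 2662 and 2177 CPM in DI (log2 fold change 2.03 ± 0.34, adjusted p = 0.00599). RUNX1, a transcription factor, had no count in C and 4.16, 4.67 and 1.53 CPM in DI (at least 19.9-fold higher, adjusted p = 0.00402). These were the only 2 of 25 tested mesenchymal and matrix genes that edgeR called without the block (4 raised and 1 lowered with the block), and the list's median was 0.20. Over all tested genes 4.5% were called, and 19.4% with the block.

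**Figure D2:**
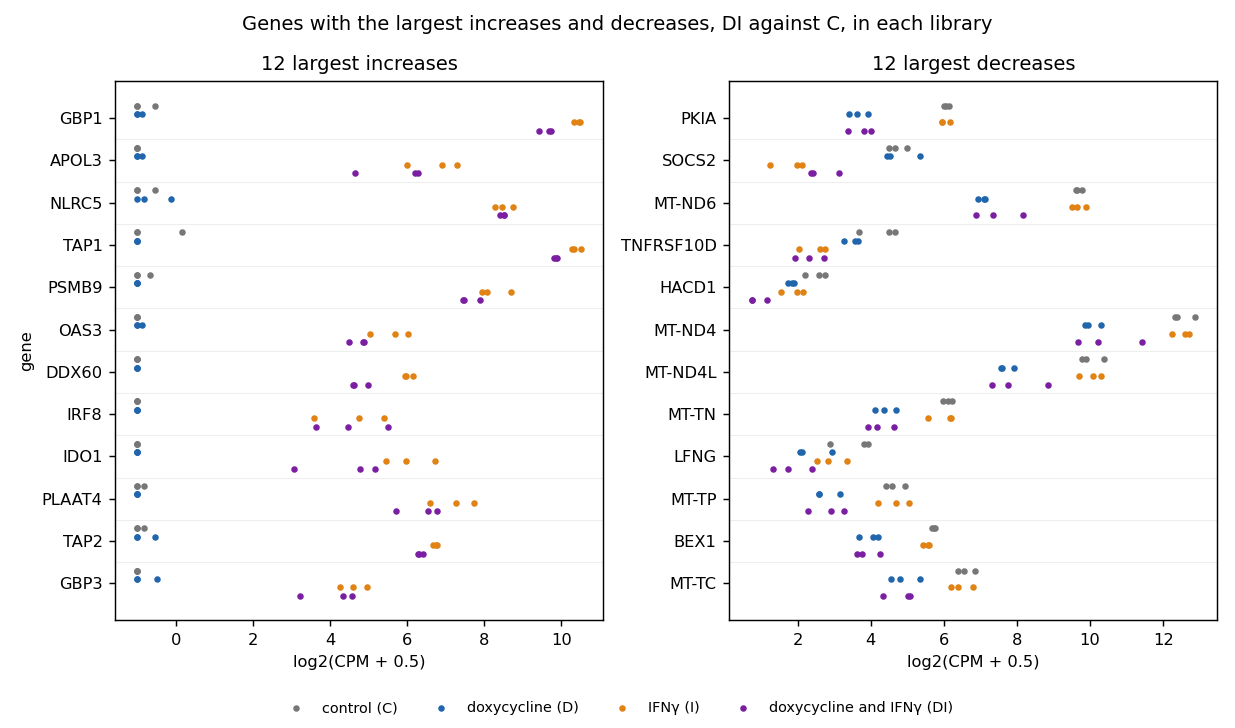
Each point is 1 library, placed by log2(CPM + 0.5) on the x axis, for the 12 genes with the largest increases (left) and the 12 with the largest decreases (right) in DI against C. On the left the I and DI libraries both lie far above C and D, and for GBP1 all DI libraries lie below all I libraries. On the right D and DI lie together below C for PKIA, BEX1 and the mitochondrial genes, while for SOCS2 it is I and DI.

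Each single treatment was set beside the combination in the same fit, and all 3 comparisons share the control libraries. Alone, IFNγ gave 2.19% of tested genes called against C and doxycycline 1.23%. For the 463 raised genes the median log2 fold change was 1.49 in I against C and 0.25 in D against C, and in 350 of them the larger size belonged to I. For the 249 lowered genes the medians were -0.09 in I and -0.58 in D, and in 214 of them D had the larger size. GBP1 had 1429, 1408 and 1279 CPM in I and 0.0477, 0 and 0 CPM in D. DDX60 had 62.3, 61.2 and 70.6 CPM in I, above all of its DI values, and no count in D. IL18BP had 116, 104 and 119.7 CPM in I and 8.49, 9.83 and 8.57 CPM in D. IRF1 was close in both IFNγ groups, with 381, 409 and 442 CPM in I. Whether the IFNγ response differed with doxycycline was tested as an interaction, and by edgeR 0 of the 712 genes passed, with 41 at an unadjusted p under 0.05 (99 over all genes). With the replicate block it was again 0 (65 unadjusted), and DESeq2 called 2, IL18BP and RIGI.

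ATF4 target genes, which serve amino acid supply and stress, were raised in few cases by the test and higher in nearly all. Of 23 tested, 4 were called and 22 had a fold change above 0 (median log2 0.86). With the block 10 were called, with only the 6 libraries of C and DI in the model 2, and without the low-count filter 0. The number was 0 without C1, C3 or DI3, and 1 without C2 or DI1. CHAC1 (chr15:40952962-40956519), which degrades glutathione, stood at 2.89, 2.43 and 1.93 CPM in C and 18.5, 9.49 and 43 CPM in DI (log2 fold change 3.29 ± 0.74, adjusted p = 0.0314). SLC7A11, the cystine importer, was measured at 2.7, 1.79 and 1.62 CPM in C and 36.6, 8.46 and 74.7 CPM in DI (log2 fold change 4.29 ± 1.02, adjusted p = 0.0378), and DI2 held far less than DI1 and DI3. INHBE, a subunit of activin E, stood at 1.17, 1.74 and 0.436 CPM in C and 13, 5.54 and 26.4 CPM in DI (log2 fold change 3.72 ± 0.76, adjusted p = 0.0189), and SESN2, a leucine sensor, at 16.1, 13.4 and 11.3 CPM in C and 46.2, 26.9 and 67.9 CPM in DI (log2 fold change 1.79 ± 0.45, adjusted p = 0.049).

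Single libraries decided these calls. CHAC1 lost its call without C1, C2, C3, DI1 or DI3 (adjusted p = 0.107, 0.103, 0.133, 0.0577 and 0.101), and SLC7A11 without C1, C2, C3, DI1 or DI3 (adjusted p = 0.122, 0.129, 0.154, 0.0769 and 0.116). INHBE lost it without C1, C3 or DI3 (adjusted p = 0.0845, 0.0799 and 0.06) and SESN2 without C1, C2, C3, DI1 or DI3 (adjusted p = 0.12, 0.136, 0.181, 0.109 and 0.165). SESN2 also lost it with the replicate block (adjusted p = 0.0529). The fold changes of CHAC1 were -0.62 for I against C and 3.73 for D against C, and those of SLC7A11 were 0.93 for I against C and 4.66 for D against C. In D3, CHAC1 stood at 69.1 CPM and SLC7A11 at 114 CPM, in both cases the highest of the 12 libraries. Of the 23 tested ATF4 targets, 21 had a promoter window and 5 of these (23.8%) held the CARE letters, against 3.67% of all promoters. The list was made of known ATF4 targets, so a higher share came with its choice and says nothing about these libraries.

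Neighbouring pathways gave single calls, beside 2.93% of all tested genes raised and 1.57% lowered (9.67% and 9.7% with the block). In serine, folate and proline synthesis 1 of 15 tested genes was raised (2 raised and 2 lowered with the block). It was ALDH1L2, a folate enzyme of mitochondria, which rose from 12.7, 10.8 and 7.42 to 29.8, 28.8 and 27.7 CPM (log2 fold change 1.48 ± 0.21, adjusted p = 0.0021) and kept the call without any 1 of the 6 libraries. SHMT2, the most abundant of the list, was measured at 376, 409 and 545 CPM in C and 371, 429 and 476 CPM in DI with no difference that passed (log2 fold change -0.06 ± 0.24, adjusted p = 0.945). Of 15 endoplasmic reticulum chaperones 1 was raised and 1 was lowered. PDIA6, a disulfide isomerase, rose from 173, 165 and 167 to 258, 253 and 226 CPM (log2 fold change 0.55 ± 0.10, adjusted p = 0.011), a call lost without C3 (adjusted p = 0.051). The co-chaperone DNAJB9 fell from 37.5, 36.3 and 31.2 to 17.8, 18.5 and 17.7 CPM (log2 fold change -0.96 ± 0.12, adjusted p = 6.49e-04).

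Among called lowered genes with at least 5 CPM in C the largest fold change belonged to PKIA (chr8:78516139-78605267), an inhibitor peptide of protein kinase A. It stood at 66.7, 63.6 and 70.7 CPM in C and 13.6, 15.5 and 9.82 CPM in DI, with no overlap (log2 fold change -2.37 ± 0.18, adjusted p = 1.79e-05). BEX1, a small neuronal adaptor protein, fell from 51.1, 52.5 and 53.2 to 18.4, 11.8 and 13.2 CPM (log2 fold change -1.85 ± 0.18, adjusted p = 1.18e-04). HACD1, an enzyme of very long fatty acid synthesis, went from 5.47, 4.07 and 6.23 to 1.75, 1.18 and 1.17 CPM (log2 fold change -1.94 ± 0.29, adjusted p = 0.00289). LFNG, which modifies Notch receptors, was measured at 13.5, 6.95 and 14.6 CPM in C and 2, 4.77 and 2.84 CPM in DI (log2 fold change -1.86 ± 0.43, adjusted p = 0.0328), and it lost its call without C1, C3, DI1 or DI3 (adjusted p = 0.115, 0.12, 0.115 and 0.12). The fold changes of PKIA were -0.05 for I against C and -2.45 for D against C, and those of BEX1 were -0.19 for I against C and -1.76 for D against C. For HACD1 they were -0.69 for I against C and -0.78 for D against C, and for SOCS2 -3.08 for I against C and 0.10 for D against C.

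The 6 called genes that lost the most CPM all came from the mitochondrial genome. They were MT-CO1, MT-ND4, MT-ND5, MT-ND4L, MT-ND6 and MT-ND3. All 13 mitochondrial mRNAs, which encode core subunits of the respiratory chain and ATP synthase, had a fold change below 0 (median log2 -1.52), and 6 of the 13 were called. Their summed level was 51143, 37701 and 34435 CPM in C and 25601, 10929.7 and 7534 CPM in DI, with DI1 well above DI2 and DI3 and below all controls. Nuclear copies of mitochondrial genes share sequence with these RNAs, so the levels are uncertain to that extent.

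MT-ND6 (chrM:14149-14673), the complex I subunit read from the light strand, stood at 885, 783 and 795 CPM in C and 284, 163 and 118 CPM in DI (log2 fold change -2.12 ± 0.26, adjusted p = 7.29e-04). MT-ND4 was measured at 7516, 5295 and 5139 CPM in C and 2724, 1179 and 809 CPM in DI (log2 fold change -1.93 ± 0.38, adjusted p = 0.0153), and MT-ND4L, which shares its transcript, at 1340.5, 952 and 871 CPM in C and 462, 216 and 158 CPM in DI (log2 fold change -1.92 ± 0.35, adjusted p = 0.0105). The complex IV subunit MT-CO1 went from 12682, 10672 and 8717 to 5573, 2769 and 1635 CPM (log2 fold change -1.68 ± 0.37, adjusted p = 0.0284). MT-ND5 went from 2560.2, 2238 and 1939 to 1192, 518 and 472 CPM (log2 fold change -1.63 ± 0.31, adjusted p = 0.0141), and MT-ND3 from 1051, 609 and 827 to 424, 177 and 183 CPM (log2 fold change -1.67 ± 0.34, adjusted p = 0.02). MT-ATP6 was not called, with 3753, 2188 and 2236 CPM in C and 3201, 1227 and 882 CPM in DI and overlapping groups (log2 fold change -0.62 ± 0.44, adjusted p = 0.533). Transfer RNAs of the same genome were also among the 12 largest decreases. MT-TN fell from 74.9, 68.9 and 63 to 17.5, 14.8 and 24.4 CPM (log2 fold change -1.87 ± 0.23, adjusted p = 7.48e-04). MT-TC fell from 116, 93.9 and 82.5 to 31.8, 19.6 and 33.1 CPM (log2 fold change -1.79 ± 0.27, adjusted p = 0.00278) and MT-TP from 23.7, 21 and 29.98 to 9.19, 4.41 and 7.03 CPM (log2 fold change -1.85 ± 0.31, adjusted p = 0.00597).

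The number of mitochondrial mRNAs called turned on single libraries and on the pairing. It was 12 of 13 with the replicate block, 12 without DI1, 2 without C1 or DI2, and 4 without C3 or DI3. With only the 6 libraries of C and DI in the model it was 1, MT-ND6. MT-CO1 lost its call without C1, C2, C3, DI2 or DI3 (adjusted p = 0.102, 0.0712, 0.0539, 0.0942 and 0.0538), and MT-ND3 without C1, C3, DI2 or DI3 (adjusted p = 0.079, 0.0602, 0.0657 and 0.0785). MT-ND4 lost it without C1 or DI2 (adjusted p = 0.0636 and 0.0612) and MT-ND5 without C1 or DI2 (adjusted p = 0.0575 and 0.0505), and MT-ND6, MT-ND4L and the 3 transfer RNAs kept theirs without any 1 of the 6. The list's median fold change was -0.10 in I against C and -1.96 in D against C, and its summed level was 12597, 10174 and 8242 CPM in D.

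**Figure D3:**
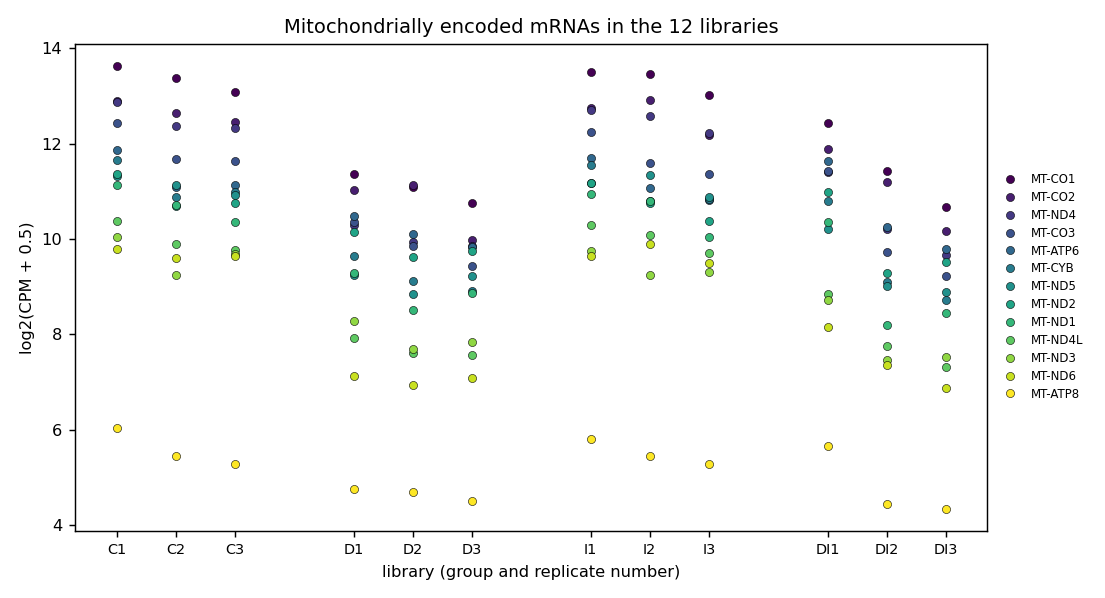
Each point is 1 of 13 mitochondrial mRNAs in 1 of 12 libraries, at log2(CPM + 0.5) on the y axis. For most of the genes the D and DI libraries lie below the C and I libraries, and DI1 lies highest within DI.

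Few nuclear genes that serve the mitochondria were called without the replicate block, where 2.93% of all tested genes were raised and 1.57% lowered. With the block these shares were 9.67% and 9.7%, and each list below had lowered members. Of 19 factors of mitochondrial transcription and replication edgeR called 0 (2 at an unadjusted p under 0.05, 1 by DESeq2, 2 with the block), and POLRMT, the mitochondrial RNA polymerase, stood at 158, 142 and 144 CPM in C and 115, 133 and 108 CPM in DI (log2 fold change -0.32 ± 0.11, adjusted p = 0.169). With the replicate block POLRMT passed as lowered (edgeR, adjusted p = 0.0243). Of 76 mitochondrial ribosomal protein genes edgeR called 0 (12 at an unadjusted p under 0.05, 2 by DESeq2, 15 with the block, 14 of these lowered), with a median log2 fold change of -0.14. Of 76 nuclear-encoded respiratory chain genes 1 was lowered and none raised (median log2 -0.18), and 19 were lowered and 1 raised with the block. The lowered gene was COX7C, a subunit of complex IV, which went from 159, 149 and 166 to 117, 102 and 109 CPM (log2 fold change -0.53 ± 0.10, adjusted p = 0.0114), and it lost the call without C3 (adjusted p = 0.0556).

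Genes for the cytosolic ribosome were lower by small amounts. Of 76 tested, 72 had a fold change below 0 (median log2 -0.26), and 8 were called. The number was 41 with the block, 4 with library size alone as scaling, 20 by DESeq2, and 1 without the low-count filter or with only the 6 libraries. Between 1 and 3 were called when any 1 of the 6 libraries was left out (1 without C1, 3 without DI1, 2 without each of the others). RPL23 fell from 827, 829 and 791 to 587, 575 and 572 CPM (log2 fold change -0.50 ± 0.07, adjusted p = 0.00249) and kept its call in each of these fits. RPL13A went from 1341, 1198 and 1275 to 964, 891 and 956 CPM (log2 fold change -0.44 ± 0.09, adjusted p = 0.0209). RPL15 went from 1578, 1515 and 1479 to 1191, 1202 and 1125 CPM (log2 fold change -0.38 ± 0.08, adjusted p = 0.0184), and RPL4 from 2562, 2379.7 and 2379.7 to 1945, 1908 and 1846 CPM (log2 fold change -0.36 ± 0.08, adjusted p = 0.0286). RPL13A lost its call without C1, C3, DI1, DI2 or DI3 (adjusted p = 0.0923, 0.0728, 0.0573, 0.0669 and 0.0625), RPL15 without C1, C2, DI1 or DI3 (adjusted p = 0.0904, 0.0659, 0.0565 and 0.082), and RPL4 without C1, C2, C3, DI1, DI2 or DI3 (adjusted p = 0.116, 0.0683, 0.0737, 0.0737, 0.0677 and 0.108). Ribosomal protein genes have many processed pseudogenes with near-identical sequence, which makes these counts uncertain.

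Genes of mitosis were lower in the same modest range. Of 35 G2/M genes 31 had a fold change below 0 (median log2 -0.31), and 5 were called, 19 lowered and 1 raised with the block. The number was 2 without C1, 3 without C2, and 1 without C3, DI2 or DI3 or with only the 6 libraries. BUB1B, a kinase of the spindle checkpoint, fell from 177, 170.4 and 197 to 114, 102 and 119 CPM (log2 fold change -0.70 ± 0.10, adjusted p = 0.00217) and kept its call in each fit. MAD2L1, of the same checkpoint, went from 183, 169 and 207 to 128, 99.8 and 121 CPM (log2 fold change -0.68 ± 0.14, adjusted p = 0.0166). The cyclin CCNB2 went from 208, 216 and 234 to 164, 132 and 154 CPM (log2 fold change -0.55 ± 0.11, adjusted p = 0.0202), and PTTG1, securin, from 113, 105 and 123 to 83.7, 75.8 and 66 CPM (log2 fold change -0.60 ± 0.13, adjusted p = 0.0247). MAD2L1 lost its call without C1, C3, DI2 or DI3 (adjusted p = 0.0541, 0.0755, 0.0536 and 0.05), CCNB2 without C2, C3, DI2 or DI3 (adjusted p = 0.0538, 0.0868, 0.0613 and 0.06) and PTTG1 without C1, C3, DI2 or DI3 (adjusted p = 0.0771, 0.102, 0.0615 and 0.0974). Over all tested genes 1.57% were lowered and 2.93% raised, or 9.7% and 9.67% with the block. Of 36 G1/S and replication genes 1 was called (3 raised and 5 lowered with the block), near those shares. It was the cyclin CCNE2, at 9.22, 9.98 and 11.5 CPM in C and 4.93, 4.82 and 5.86 CPM in DI (log2 fold change -0.98 ± 0.23, adjusted p = 0.0384), and that call was lost without C1, C2, C3, DI1, DI2 or DI3 (adjusted p = 0.0839, 0.0954, 0.149, 0.128, 0.107 and 0.081).

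Of 44 genes of neurites, synapses and axon guidance, 4 were lowered and 1 was raised (median log2 0.02), beside 1.57% lowered and 2.93% raised over all genes tested. With the block 7 were lowered and 11 raised, beside 9.7% and 9.67%. STMN2, a regulator of microtubules in growing axons, fell from 449, 369 and 461 to 174, 231 and 202 CPM (log2 fold change -1.08 ± 0.16, adjusted p = 0.00319). GAP43, a growth cone protein, fell from 78.9, 84.8 and 67.7 to 32.4, 31.9 and 22.4 CPM (log2 fold change -1.42 ± 0.23, adjusted p = 0.00511), and both kept their call without any 1 of the 6 libraries. The fold changes of STMN2 were 0.13 for I against C and -1.37 for D against C, and those of GAP43 were -0.77 for I against C and -0.68 for D against C. EPHB2, an ephrin receptor, went from 65.8, 61.6 and 68.8 to 49.6, 46.8 and 54.9 CPM (log2 fold change -0.37 ± 0.09, adjusted p = 0.0453), a call lost without C1, C2, C3, DI1, DI2 or DI3 (adjusted p = 0.137, 0.0747, 0.175, 0.135, 0.121 and 0.054). UNC5B, a netrin receptor, was the raised member, at 81.1, 84.7 and 58.9 CPM in C and 246, 143 and 259.8 CPM in DI (log2 fold change 1.53 ± 0.27, adjusted p = 0.00807), with DI2 closest to the controls. The number of lowered genes was 2 without C1, C3, DI1 or DI3, with only the 6 libraries and with library size alone as scaling. Among 30 ion channel and receptor genes 1 was raised (3 raised and 6 lowered with the block), the potassium channel gene KCNMA1, at 35.3, 32.4 and 26.7 CPM in C and 68.2, 57.4 and 49.8 CPM in DI (log2 fold change 0.89 ± 0.18, adjusted p = 0.0188), a call lost without C2, C3 or DI1 (adjusted p = 0.0543, 0.0866 and 0.0753). Of 21 syntaxins and synaptotagmins 1 was raised (4 raised and 5 lowered with the block), STX17, which serves autophagosome fusion, at 8.54, 7.4 and 7.6 CPM in C and 16.7, 16.6 and 19.5 CPM in DI (log2 fold change 1.16 ± 0.17, adjusted p = 0.00261).

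Hypoxia-responsive genes differed among the DI libraries. DI1 and DI3 lay below all 3 controls for 14 and 12 of the 18 tested genes, and DI2 for 0 of them. How many of all tested genes lay below the controls in each library was not counted, so these counts describe the list alone. Against the mean of the controls on the log2(CPM + 0.5) scale, the median of the 18 genes was -1.17 in DI1, -1.07 in DI3 and 0.88 in DI2. BNIP3, a mitophagy receptor, stood at 531, 409 and 1100.0 CPM in C and 95.3, 869 and 209 CPM in DI, with overlapping groups (log2 fold change -0.80 ± 0.84, adjusted p = 0.715). CA9, a carbonic anhydrase of hypoxic cells that was chosen after its values were seen, was measured at 22.2, 15.6 and 28.7 CPM in C and 0.0513, 29.6 and 0.18 CPM in DI (log2 fold change -1.16 ± 1.68, adjusted p = 0.807), so that DI1 and DI3 were near the floor. The D libraries had the same order, with CA9 at 0.0953, 15.4 and 0.116 CPM and BNIP3 at 86.4, 554 and 150.3 CPM, and the I libraries had CA9 at 14.9, 31.7 and 36.4 CPM.

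Glycolytic enzymes and glucose transporters followed the same split, and their counts by library again lack a share over all tested genes. Of the 21 tested, 17 in DI1 and 18 in DI3 lay below all controls, against 2 in DI2, and edgeR called 0 (3 at an unadjusted p under 0.05, 1 by DESeq2, 0 with the block), with a median log2 fold change of -0.49. LDHA, lactate dehydrogenase, stood at 2706, 2509 and 3563 CPM in C and 1060.2, 2829 and 1512 CPM in DI (log2 fold change -0.70 ± 0.35, adjusted p = 0.342). GAPDH was measured at 2823, 2385 and 3569 CPM in C and 2289.5, 2495 and 2603 CPM in DI (log2 fold change -0.25 ± 0.16, adjusted p = 0.5). Leaving out DI2 alone moved the list's median to -0.98 with 1 gene lowered, and that of the hypoxia list from 0.11 to -1.02. Without replicate 2 of both groups, 6 glycolytic and 7 hypoxia genes were lowered. With the replicate block the hypoxia median was -0.29, so its sign depends on the fit. The called member of the hypoxia list, ARNT, a partner of the hypoxia-inducible factors, did not follow the split and rose from 63.2, 69.9 and 60.7 to 89.9, 90.2 and 89.2 CPM (log2 fold change 0.47 ± 0.08, adjusted p = 0.00683). What set replicate 2 of the doxycycline-treated libraries apart was not tested.

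**Figure D4:**
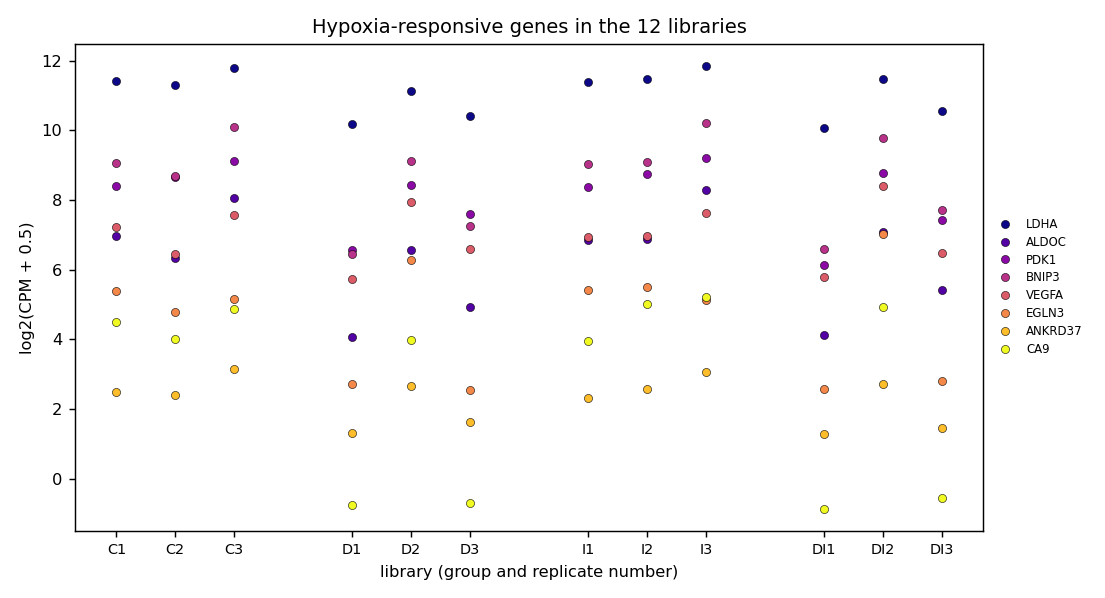
Each point is 1 of 8 hypoxia-responsive genes in 1 of 12 libraries, at log2(CPM + 0.5) on the y axis. In D and DI the libraries of replicates 1 and 3 lie low and replicate 2 lies near the C and I libraries, most plainly for CA9.

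Of 25 tested SWI/SNF subunits, 2 were raised and 1 was lowered, beside 4.5% of all tested genes called (median log2 0.10). With the block 2 were raised and 3 lowered, beside 19.4% of all tested genes called. ARID1B, the paralog that takes the place of ARID1A in the complex, stood at 141, 138 and 118 CPM in C and 173, 188 and 193 CPM in DI (log2 fold change 0.47 ± 0.10, adjusted p = 0.0247), a call lost without C1, C2, C3, DI2 or DI3 (adjusted p = 0.0527, 0.0538, 0.106, 0.0638 and 0.0947). SMARCD3 was measured at 8.3, 10.5 and 7.73 CPM in C and 22.2, 26.3 and 16.6 CPM in DI (log2 fold change 1.29 ± 0.25, adjusted p = 0.0132), lost without C1 or C3 (adjusted p = 0.0698 and 0.0682). ACTL6B, the actin-related subunit of neurons, went from 43.8, 57.2 and 59.3 to 34.5, 34.6 and 31.5 CPM (log2 fold change -0.67 ± 0.16, adjusted p = 0.0422), lost without C2, C3, DI1, DI2 or DI3 (adjusted p = 0.141, 0.161, 0.107, 0.0878 and 0.144). The fold changes of ARID1B were 0.18 for I against C and 0.52 for D against C.

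MYCN (chr2:15940564-15947007), the amplified oncogene of this line, stood at 1330.4, 1081 and 1253 CPM in C and 1075, 772 and 895 CPM in DI, with no overlap and no call (log2 fold change -0.42 ± 0.16, adjusted p = 0.194). With the replicate block it passed (adjusted p = 0.00147). The fold changes beside it were -0.39 for I against C and 0.04 for D against C. Of the 11 tested genes of the MYC network edgeR called 0 (5 at an unadjusted p under 0.05, 3 by DESeq2, 6 with the block, 5 of these lowered).

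Over all tested genes 4.5% were called, and 19.4% with the block. Of 18 adrenergic lineage factors edgeR called 0 (6 at an unadjusted p under 0.05, 2 by DESeq2, 7 with the block), and without C2 it called 1. Of 16 genes of catecholamine synthesis and storage it called 0 (2 at an unadjusted p under 0.05, 2 by DESeq2, 2 with the block). PHOX2A, a sympathetic neuron factor, stood at 855, 837 and 895 CPM in C and 1072, 1034 and 1197 CPM in DI (log2 fold change 0.35 ± 0.09, adjusted p = 0.0608, and 0.00707 with the block). DBH, which makes noradrenaline, was measured at 265, 442 and 326 CPM in C and 79.1, 417 and 108 CPM in DI (log2 fold change -0.77 ± 0.68, adjusted p = 0.646), with the DI2 library again apart from the other DI libraries. TH, the first enzyme of that route, ran from 3.13 to 74.7 CPM within C and stood at 1.9, 3.08 and 0.766 CPM in DI (log2 fold change -4.45 ± 1.38, adjusted p = 0.112), and it was named after its values were seen. Of 27 cholesterol and fatty acid genes edgeR called 0 (0 at an unadjusted p under 0.05, 0 by DESeq2, 3 with the block), and of 14 immediate early genes 0 (2 at an unadjusted p under 0.05, 0 by DESeq2, 2 with the block). SCD, a fatty acid desaturase, stood at 1109, 789.8 and 1457 CPM in C and 1098, 1314 and 1370.5 CPM in DI and JUN, a subunit of AP-1, at 100.1, 116 and 109 CPM in C and 104, 151 and 117 CPM in DI.

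Markers of cell types that a clonal culture should not hold were measured as well. Fibroblast and Schwann markers summed to 134, 183 and 131 CPM in C and 122, 174 and 121 CPM in DI over 10 tested genes, of which THY1, also a neuronal surface protein, was lowered from 61.8, 62.2 and 64.4 to 39.3, 36.3 and 47.9 CPM (log2 fold change -0.61 ± 0.15, adjusted p = 0.0488), a call lost without C1, C2, C3, DI1 or DI2 (adjusted p = 0.125, 0.113, 0.151, 0.152 and 0.132). Epithelial and endothelial markers summed to 8.17, 6.85 and 4.24 CPM in C and 5.8, 6.1 and 2.88 CPM in DI over 5 tested genes, of which edgeR called 0 (2 at an unadjusted p under 0.05, 0 by DESeq2, 0 with the block). PTPRC, the common leukocyte antigen, had 1, 0 and 3 counts in C and 0, 0 and 16 in DI.

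**Figure D5:**
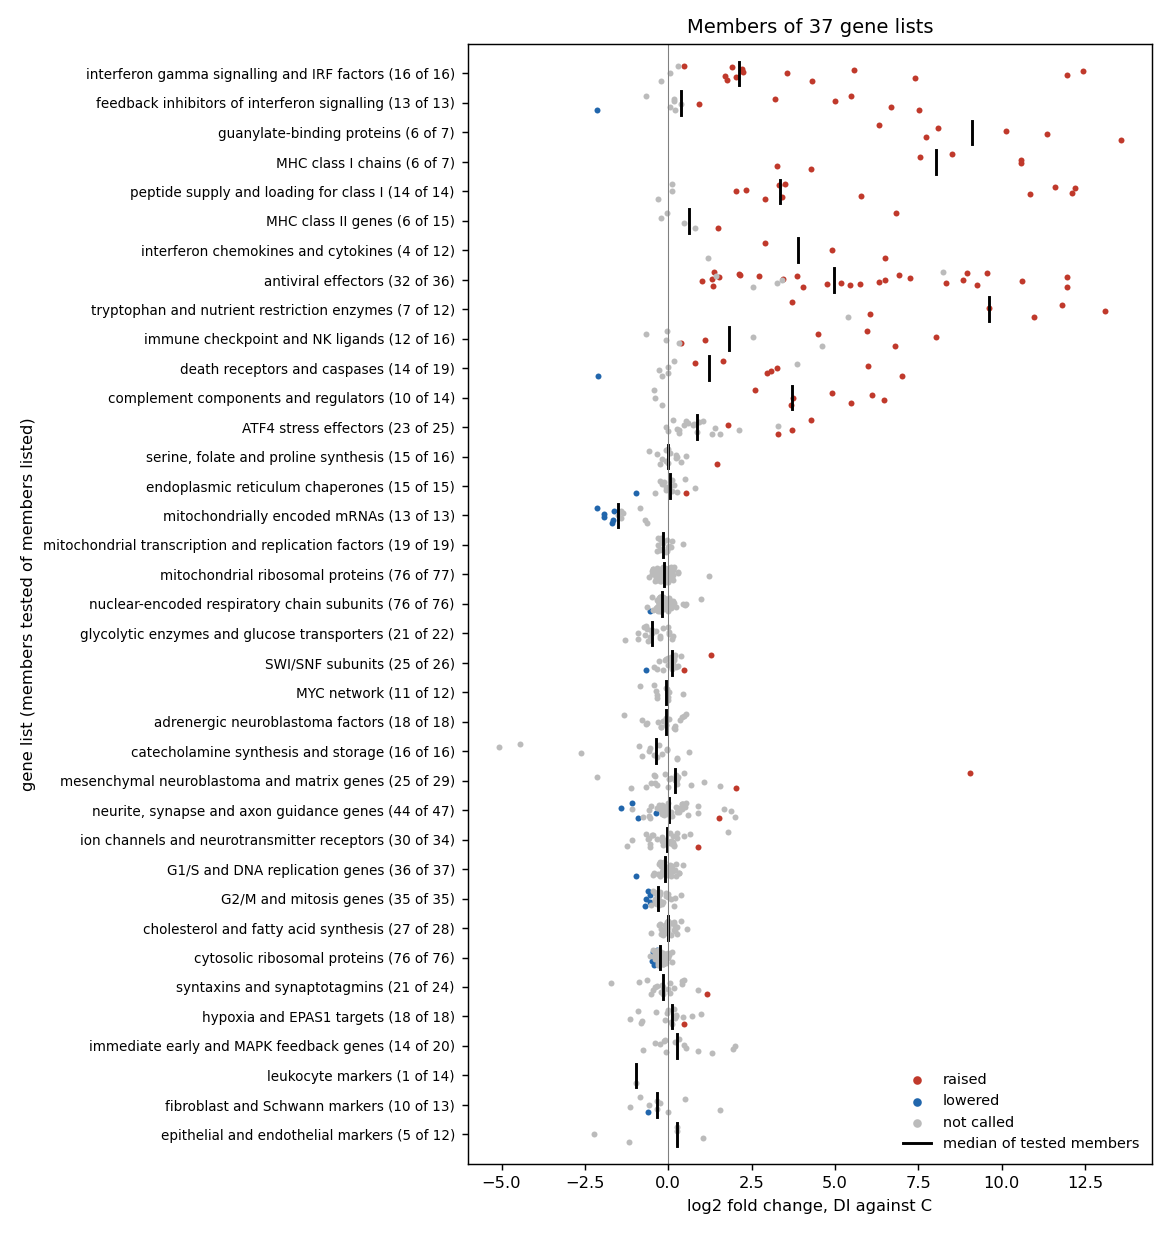
Each point is 1 tested member of the 37 lists, at its log2 fold change of DI against C on the x axis, coloured by its edgeR call, with a bar at the list's median. Interferon lists reach to the right, the mitochondrially encoded mRNAs lie to the left with a median of -1.52, and most other lists centre near 0.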

How the data were processed

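Total RNA of 12 SK-N-DZ libraries was sequenced. The authors deposited whole-number counts per gene for 43769 genes, and the aligner, counting tool and build are not given in the sources used here. The authors also deposited tables of their own comparisons (log2 fold changes, p-values), from DESeq2 per the labels, which were not used, and neither were 18 per-library columns in them that the labels do not explain. All gene identifiers occur in GENCODE 29 (GRCh38), which gave positions.

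Counts were scaled by TMM, filtered with filterByExpr (minimum count 10) and tested two-sided by edgeR 4.0.16 (limma 3.58.1, R 4.3.3) in 1 quasi-likelihood model of the 4 groups. This left 15828 genes, and 712 were called in DI against C (2730 at an unadjusted p under 0.05). Same-numbered libraries correlated in their deviations from the group means in all 18 pairs (r = 0.32 to 0.84), so the numbers pair the libraries. DESeq2 1.42.0 was an alternative. The others changed the scaling, filter, libraries, block and threshold, and left out each library. No 2 libraries of a group agreed within sampling noise.

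The comparison, the gene lists and the named genes were chosen with earlier results of these data known. Named were the 12 largest increases and decreases among called genes with at least 5 CPM in the higher group and no overlap, the 6 largest gains and losses in CPM, up to 4 called genes per list by p (else the 2 most abundant) and genes the study follows. Some genes that this rule names are not reported here. Sequences are from RefSeq (Python 3.11.15). The model was tested on simulated data.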

Additional observations from a re-analysis of the deposited data

Results flagged for a closer look

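The 140 named genes were searched for opposite directions with IFNγ in the absence and presence of doxycycline. UNC5B was found by that search, with opposite directions in every pair of libraries with the same replicate number. How many genes such a search returns by chance was not worked out, so the find supports nothing. On the log2(CPM + 0.5) scale it was higher in I than in C by 0.62 on average (0.43 to 0.99) and differed between DI and D by -0.10 on average (-0.15 to -0.08). The opposite signs were counted and not tested here beyond the interaction fit, in which UNC5B did not pass (edgeR, adjusted p = 1).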

How the results depend on the processing

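None of the 712 calls changed sign under an alternative that tested it. Between DI and C, DESeq2 called 1357 genes (812 raised, 545 lowered), the replicate block 3067 (1531 and 1536), the 6 libraries alone 311 (245 and 66), an adjusted p under 0.01 left 299 (228 and 71), and a fold change of at least 2 left 339 (285 and 54). Without the low-count filter 163 genes were lowered. Library size alone as scaling gave 551 raised and 192 lowered genes, which moved the raised share from 65.0% to 74.2%, with a median shift of 0.049 over all genes. When 1 library, or replicate 1, 2 or 3 of both groups, was left out, 153 to 548 genes were called, 117 to 364 raised and 36 to 232 lowered. Members of the lists called were 144, or 316 with the replicate block and 66 to 121 with a library or number left out. DESeq2 called 2 interactions. The block ended the call of SESN2 and no other named gene's. It also made calls, some of which are given in the text. Of 112 named genes called, 85 kept the call without any 1 of the 6 libraries, 27 lost it at least once and 3 lost it each time. Some named genes that were not called changed sign. With a library or number left out, their log2 fold changes ranged as follows. BNIP3 ran from -2.42 to 0.049, CHGA ran from -0.13 to 0.52, JUND ran from -0.30 to 0.13, MCM7 ran from -0.047 to 0.046 and was 0.049 with library size alone, 0.0028 without a filter, 0.0016 with the 6 libraries, MRPS27 ran from -0.22 to 0.056, MXI1 ran from -0.91 to 0.32, SCD ran from -0.057 to 0.41, SHMT2 ran from -0.17 to 0.11, SYT11 ran from -0.20 to 0.19, VWF ran from -0.27 to 1.03. Depth limits genes at the floor, such as CXCL10 and HLA-DRA.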

Other observations

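The following called genes lie outside the gene lists and were chosen after their values were seen. Each kept its edgeR call without any 1 of the 6 libraries. The butyrophilins BTN3A1, BTN3A2 and BTN3A3, which present phosphoantigen signals to gamma delta T cells, were all raised. BTN3A1 stood at 0.246, 0.199 and 0.436 CPM in C and 47.2, 40.3 and 52 CPM in DI (log2 fold change 7.30 ± 0.41, adjusted p = 2.01e-06), and BTN3A3 had 2 counts in C and 37.9, 41.6 and 31.3 CPM in DI (ratio 968, 95% Poisson interval 268 to 7996, adjusted p = 3.68e-06). The 3 genes are close copies of each other, so their separate levels are uncertain. The cytidine deaminases APOBEC3B and APOBEC3G had no count in C. APOBEC3G reached 4.05, 1.44 and 2.97 CPM in DI (at least 16.3-fold higher, adjusted p = 0.00269) against 2.13, 1.15 and 0.629 CPM in I, and APOBEC3B 3.08, 1.95 and 0.946 CPM (at least 11.5-fold higher, adjusted p = 0.0146). LGALS3BP, a secreted glycoprotein, rose from 34.4, 43.2 and 40.7 to 478, 439 and 413 CPM (log2 fold change 3.49 ± 0.22, adjusted p = 3.73e-06), with 3.96 for I against C and -1.13 for D against C. UBE2L6, the conjugating enzyme of ISG15, rose from 71.2, 70.4 and 58.2 to 611, 611 and 449 CPM (log2 fold change 3.06 ± 0.15, adjusted p = 6.11e-07). SPTBN1, a spectrin of the membrane skeleton, rose from 285, 356 and 265 to 629.6, 840.3 and 736 CPM (log2 fold change 1.28 ± 0.16, adjusted p = 8.71e-04), with 1.06 for I against C and 0.50 for D against C. SLC16A6, a transporter, stood at 0.184, 0.0993 and 0.436 CPM in C and 2.67, 6.72 and 3.65 CPM in DI (log2 fold change 4.17 ± 0.63, adjusted p = 0.00302), with 1.16 for I against C and 3.71 for D against C.

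Lowered genes outside the lists are given with their values under each single treatment. TMBIM6, a protein of the endoplasmic reticulum membrane that limits cell death, fell from 329, 338 and 325 to 174, 135 and 131 CPM (log2 fold change -1.17 ± 0.12, adjusted p = 2.14e-04), with 0.08 for I against C and -1.26 for D against C. ANAPC11, a subunit of the anaphase-promoting complex, fell from 55.3, 56.6 and 73.9 to 19.5, 16 and 22.9 CPM (log2 fold change -1.67 ± 0.21, adjusted p = 7.22e-04), with -0.11 for I against C and -1.70 for D against C. GNPDA1, an enzyme of amino sugar breakdown, fell from 82.7, 80.4 and 83.5 to 37.9, 20.6 and 28.7 CPM (log2 fold change -1.50 ± 0.20, adjusted p = 0.00149), with 0.11 for I against C and -1.58 for D against C. SLITRK5, a synaptic adhesion protein, fell from 62, 66.2 and 66.3 to 23.1, 32.7 and 30.3 CPM (log2 fold change -1.17 ± 0.14, adjusted p = 4.89e-04), with -0.08 for I against C and -0.89 for D against C. The noncoding RNA LINC00641 fell from 36, 38.8 and 42.4 to 15.2, 16.8 and 11.3 CPM (log2 fold change -1.44 ± 0.16, adjusted p = 3.20e-04), with -1.64 for I against C and -0.43 for D against C, and DANCR, another, from 102, 99.5 and 96.1 to 46, 37.1 and 35.5 CPM (log2 fold change -1.33 ± 0.16, adjusted p = 7.22e-04), with -1.08 for I against C and -0.38 for D against C. CNTNAP2, a neurexin family protein, fell from 445, 453 and 576 to 227, 272 and 315 CPM (log2 fold change -0.85 ± 0.15, adjusted p = 0.00922), with -0.35 for I against C and -0.50 for D against C.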
